A study of Mus musculus with 5 samples.

Results

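The genes described here encode the enzymes that write and erase DNA methylation: the methyltransferases Dnmt1, Dnmt3a and Dnmt3b, the adaptors Uhrf1 and Uhrf2, and the dioxygenases Tet1, Tet2 and Tet3. They were chosen by name, as every probe set whose only gene symbol in the platform annotation is 1 of these 8 symbols. This gave 21 of 45037 probe sets, 14 for the 5 DNMT and UHRF genes and 7 for the 3 TET genes, and 8 of 18193 genes. No probe set was left out for being dim.

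Methylated cytosine in CpG pairs is copied to the new DNA strand at each round of replication by DNMT1, which UHRF1 brings to half-methylated sites, while DNMT3A and DNMT3B set methylation on sites that lacked it. TET enzymes oxidise the methyl group, which leads to its loss through repair or through dilution at replication. In blood formation Dnmt1 is known to be needed for stem cell upkeep, and Dnmt3a and Tet2 are known for restraining self-renewal and for their frequent mutation in clonal blood disease.

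Affymetrix mouse arrays were used to read RNA from KLS cells, a flow-sorted population that is c-Kit+, Lin- and Sca-1+ and in which blood stem cells are found. The 3 deficient arrays carried the genotype Rb -/- p130 -/- p107-/-, and the 2 control arrays, titled wild type, carried Rb +/+ p130 +/+ p107+/-, so that the controls also lacked 1 copy of p107. These genes encode the pocket proteins, which hold E2F transcription factors in check. The mice bore floxed alleles, recombined at 6 weeks of age with Mx1-Cre, whose interferon-responsive promoter is active in blood cells and other tissues, and the cells were sorted 2 months later; the labels give this treatment text for all 5 arrays alike. The labels do not say whether an array stands for 1 animal or a pool, and p-values therefore reflect no more than the spread among these samples, which may be technical. In sorted bulk RNA, a change in the mix of cells and a change in RNA per cell cannot be told apart.

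All levels are log2 intensities, and differences are deficient minus control on that scale. As a check of the labels, the 3 deleted genes were read on their brightest probe sets, in a fit over genes. Rbl1, which encodes p107, read 8.33 and 7.16 in controls and 5.15, 4.25 and 4.73 in deficient arrays, and fell by 3.04 (limma adjusted p = 0.0266; with 1 array left out it passed without control 2, at 0.0311, and in the other 4 fits gave 0.0581 to 0.0867). Rb1 read 8.84 and 8.65 against 8.93, 7.77 and 8.46, and Rbl2, which encodes p130, 8.62 and 7.997 against 7.90, 7.55 and 8.07; both overlapped between the groups (limma adjusted p = 0.664 and 0.374). Where these probes lie relative to the deleted parts was not analysed here; probes that miss the removed exons check nothing. Levels of different probe sets are not compared with each other, since probes differ in how strongly they bind. Each array's median log2 intensity lay between 4.71 and 4.74. The list of KLS markers holds Kit, which encodes c-Kit, and markers outside the sort described above. Kit, Cd34, Flt3 and Cd48 read above 10 on the mean of both groups. Slamf1 read 8.43 in controls and 8.10 in deficient arrays, and all of these lay above the array medians. Ly6a, which encodes Sca-1, was not analysed here. Of the 6 markers measured, 1 fell: Procr, from 10.49 ± 0.31 to 8.87 ± 0.31 (SD, n = 2 and 3; limma adjusted p = 0.0305), which did not pass with any 1 array left out (limma adjusted p from 0.0558 to 0.116). Here a marker fell if its mean was lower at a limma adjusted p below 0.05, as 1.41% of 18193 genes were. The controls also read high for neutrophil genes: all 7 of 7 markers fell in the deficient arrays. Their summed intensities were 45838 to 55049 in controls and 680 to 1614 in deficient arrays. Of 7 B and plasma cell markers 3 fell, with sums of 13702 to 16447 against 591 to 745, and 3 of the 7 lay below the array median on every deficient array. Of 6 T and NK markers 2 fell, and 4 of the 6 lay below the array median on every deficient array. Their sums were 1590 to 2341 against 2316 to 2937, with Nkg7, a granule gene of cytotoxic cells, reading 10.66 ± 0.36 in controls and 11.29 ± 0.18 in deficient arrays (limma adjusted p = 0.152). Of 6 macrophage and dendritic markers 1 fell, with sums of 4364 to 6873 against 1583 to 2139. Of 4 measured erythroid markers 0 passed, with sums of 1609 to 2543 against 1743 to 3650. Every deficient array lay below both controls on 6 of the 7 B and plasma markers and 4 of the 6 T and NK markers. The same held for 6 of the 6 macrophage and dendritic markers, against 15.2% of all probe sets. Of the 4 erythroid markers 1 lay below both controls and 1, Tfrc, above. With 1 array left out, between 5 and 6 neutrophil, 2 and 4 B and plasma, 1 and 3 T and NK, and 0 and 1 macrophage and dendritic markers passed. Xist and the Y-linked Eif2s3y set deficient 2 (12.45 and 3.50) apart from deficient 1 (5.09 and 10.21) and deficient 3 (5.51 and 10.37). Control 2 read higher than control 1 for Xist (10.67 and 6.12) and alike for Eif2s3y (9.82 and 9.81), so control 2 was high for both genes; whether it was a pool is not stated in the labels. The part of other cell types and of these array differences in the results below was not tested.

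No probe set of the 8 genes passed the threshold between the groups: 0 of 21 had an adjusted p below 0.05 (limma, Benjamini-Hochberg over all 45037 probe sets), where 0.491% of all probe sets did. The readings of the 21 still leaned upward. At an unadjusted p below 0.05, 10 of the 21 were higher and 0 were lower in deficient cells, against 7.28% and 6.82% of all probe sets. The mean was higher in deficient cells on 17 of the 21, against 50.5% of all probe sets. These were 12 of the 14 DNMT and UHRF probe sets and 5 of the 7 TET probe sets. Probe sets of the same gene are not independent, so these counts are a description. The unadjusted count of 10 became 4 without control 1 and 4 without control 2. Every deficient array lay above both controls on 10 of the 21, against 15.4% of all probe sets, and below both controls on 1, against 15.2%. Of the 14 DNMT and UHRF probe sets 9 had groups that did not overlap upward, and of the 7 TET probe sets 1 did. The brightest probe set of each gene is called its reference below.

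**Figure D1:**
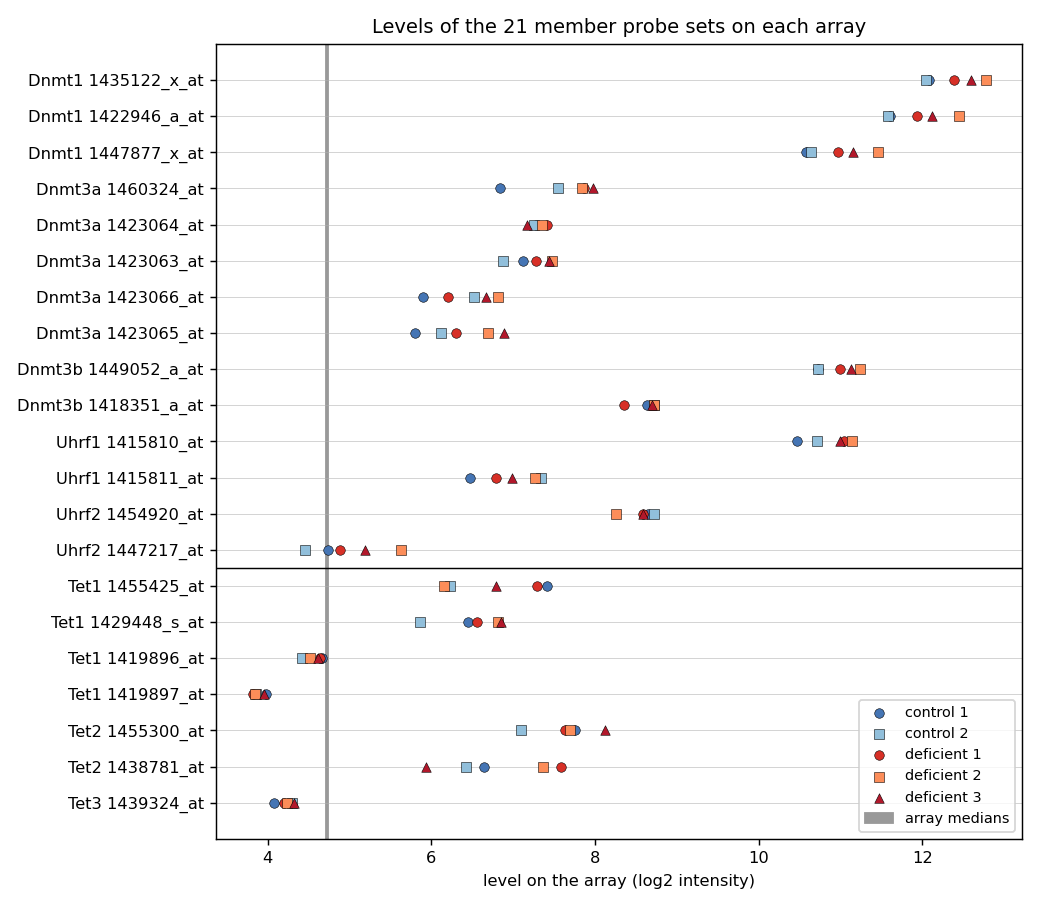
Levels of the 21 probe sets (rows, grouped by gene, with the TET genes under the line) on each of the 5 arrays, in log2 intensity; blue points are the 2 controls, red and orange points the 3 deficient arrays, and the grey band is the range of the array medians, 4.71 to 4.74. On the 3 Dnmt1 rows all deficient arrays sit to the right of both controls, while the 2 dimmest Tet1 rows and the Tet3 row lie to the left of the grey band.

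Dnmt1, which encodes the maintenance methyltransferase, gave the same picture on all 3 of its probe sets. Its reference (1435122_x_at) read 12.09 and 12.04 in controls and 12.39, 12.78 and 12.59 in deficient 1, 2 and 3. The groups did not overlap, and deficient 2 was the highest. The difference was 0.52 (SE 0.14, 95% interval 0.17 to 0.87), a 1.44-fold higher mean, and it missed the threshold (limma adjusted p = 0.183).

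The second Dnmt1 probe set (1422946_a_at) read 11.61 and 11.58 in controls and 11.94, 12.45 and 12.12 in deficient cells. Its difference was 0.58 (SE 0.17, limma adjusted p = 0.206). The third (1447877_x_at) read 10.58 and 10.64 against 10.97, 11.46 and 11.15, a difference of 0.58 (SE 0.16, limma adjusted p = 0.187). On each of the 3 probe sets deficient 2 was highest and deficient 1 lowest of the deficient arrays, and the controls lay within 0.1 of each other. The 3 probe sets read the same RNA and are not independent replicates. Without deficient 2, the array set apart by Xist, the 3 differences were 0.43, 0.44 and 0.45. Probe sets ending in _x_at can bind related transcripts; the probe set ending in _a_at, which reads several transcripts of 1 gene, gave a difference of like size.

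Uhrf1, the adaptor that recognises half-methylated DNA, had the smallest p of the 21 on its reference (1415810_at). It read 10.47 and 10.71 in controls and 11.05, 11.15 and 10.99 in deficient cells. The deficient arrays lay close together and above both controls. The difference was 0.47 (SE 0.12, 95% interval 0.17 to 0.78; limma adjusted p = 0.173), and it ranged from 0.35 without control 1 to 0.60 without control 2. With both Uhrf1 probe sets averaged it was 0.29. The other Uhrf1 probe set (1415811_at) did not show this: it read 6.47 and 7.34 in controls and 6.80, 7.27 and 6.98 in deficient cells. All 3 deficient values fell between the 2 controls, and the difference was 0.11 (SE 0.28, limma adjusted p = 0.920).

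Uhrf2, a relative of Uhrf1 that does not replace it in maintenance, was the gene whose probe sets pointed in opposite directions with no overlap of groups on either. The reference (1454920_at) read 8.64 and 8.72 in controls and 8.59, 8.26 and 8.58 in deficient cells, so the deficient arrays lay below both controls. That difference was -0.20 (SE 0.14, 95% interval -0.55 to 0.14; limma adjusted p = 0.620), and it was -0.10 without deficient 2. The dimmer 1447217_at read 4.74 and 4.46 in controls and 4.88, 5.63 and 5.18 in deficient cells. There the deficient arrays lay above, by 0.63 (SE 0.23, limma adjusted p = 0.307), with control 2 below its array's median. With all probe sets of the gene averaged, the Uhrf2 difference was 0.21, so its direction depends on the probe set.

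Among the de novo methyltransferases, Dnmt3a had the largest reference difference of the 8 genes but also controls that lay far apart. Its reference (1460324_at) read 6.84 in control 1 and 7.55 in control 2, and 7.87, 7.84 and 7.97 in deficient cells. The deficient arrays were tightly grouped and above both controls. The difference was 0.70 (SE 0.21, 95% interval 0.17 to 1.22), a 1.62-fold higher mean (limma adjusted p = 0.226). It was 0.34 without control 1 and 1.05 without control 2 (limma adjusted p = 0.457 and 0.0949), so the choice of control array moved its size by more than that of any deficient array.

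The other 4 Dnmt3a probe sets ran from no visible difference to one like the reference. 1423065_at read 5.80 and 6.11 in controls and 6.30, 6.69 and 6.89 in deficient cells (difference 0.67, SE 0.20, limma adjusted p = 0.224). 1423063_at read 7.12 and 6.88 against 7.27, 7.48 and 7.44 (difference 0.40, SE 0.13, limma adjusted p = 0.248). On both, the groups did not overlap. On 1423066_at the groups overlapped, with 5.90 and 6.52 in controls and 6.21, 6.81 and 6.66 in deficient cells (difference 0.35, SE 0.25, limma adjusted p = 0.641; 0.04 without control 1 and 0.66 without control 2). On 1423064_at all 5 arrays lay between 7.17 and 7.41, and the difference was 0.04 (95% interval -0.24 to 0.33). Which exons each probe set reads was not analysed here, so the data do not say whether these probe sets read different transcripts.

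Dnmt3b, the other de novo enzyme, had controls that almost coincided on its reference (1449052_a_at), at 10.72 and 10.73. The deficient arrays read 10.99, 11.24 and 11.13, all above. The difference was 0.40 (SE 0.12, 95% interval 0.11 to 0.69; limma adjusted p = 0.211), and it ran from 0.34 to 0.46 with any 1 array left out. The dimmer 1418351_a_at read 8.63 and 8.72 in controls and 8.35, 8.73 and 8.69 in deficient cells. Here the groups overlapped and the difference was -0.08 (SE 0.15, 95% interval -0.45 to 0.28), an interval that does not hold the value of 0.40 seen on the reference. With both averaged, the Dnmt3b difference was 0.16.

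**Figure D2:**
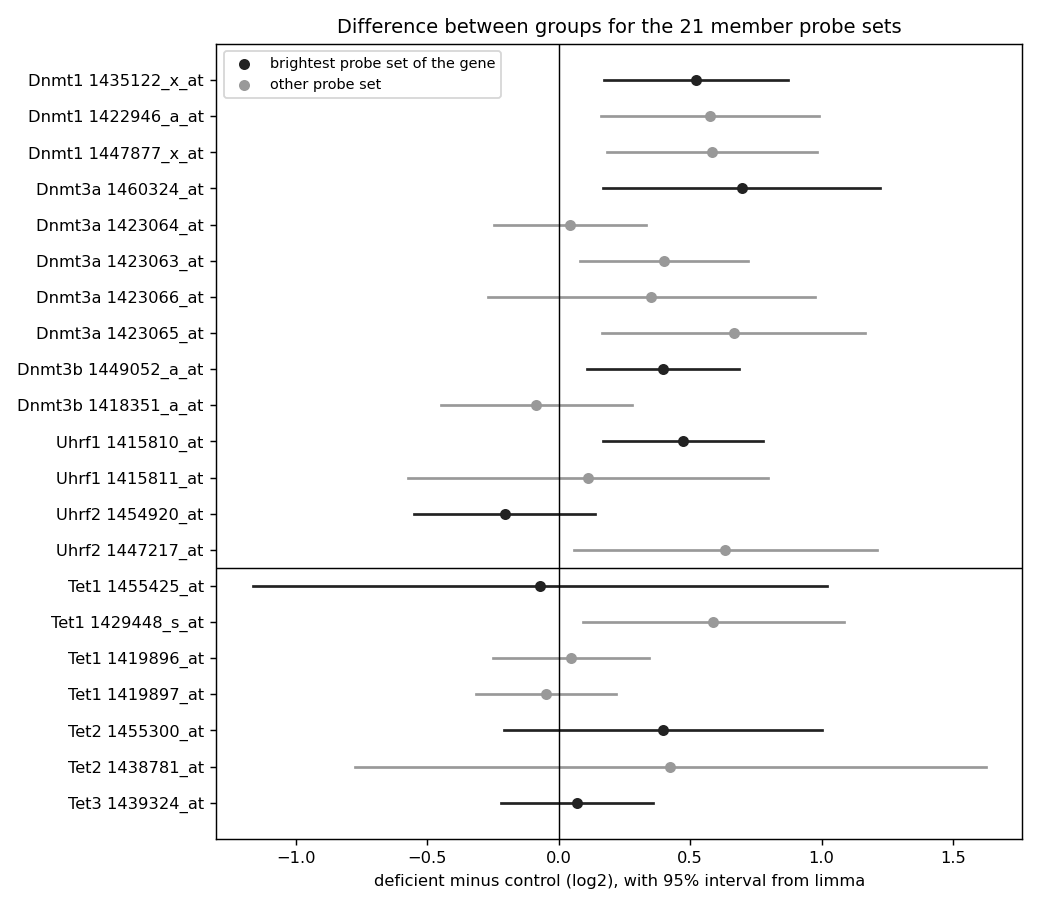
Difference between the groups (deficient minus control, log2) for the same 21 probe sets, with 95% intervals from limma, not adjusted for the number of probe sets; black marks the brightest probe set of each gene and grey the others, and the line divides DNMT and UHRF genes from TET genes. The black intervals of Dnmt1, Dnmt3a, Dnmt3b and Uhrf1 lie above 0, and those of Uhrf2, Tet1, Tet2 and Tet3 include 0.

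The brighter probe sets of Tet1 and Tet2 spread widely within the groups, unlike the dim ones of Tet1 and Tet3. Tet1 on its reference (1455425_at) read 7.41 and 6.22 in controls and 7.29, 6.15 and 6.79 in deficient cells. High and low arrays occurred in both groups, and the 95% interval of the difference, -1.16 to 1.02 around -0.07, covers a change of 2-fold either way. The direction turned when an array was left out: the difference was 0.52 without control 1, 0.22 without deficient 2 and -0.66 without control 2. A further Tet1 probe set, 1429448_s_at, read 6.45 and 5.86 in controls and 6.56, 6.81 and 6.85 in deficient cells, with no overlap (difference 0.59, SE 0.20, limma adjusted p = 0.273); it was 0.29 without control 2. Probe sets ending in _s_at can read more than 1 gene's transcripts. The remaining 2 Tet1 probe sets (1419896_at and 1419897_at) lay below the array median on all 5 arrays, with differences of 0.05 and -0.05.

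Tet2 read 7.75 and 7.09 in controls and 7.63, 7.70 and 8.13 in deficient cells on its reference (1455300_at). Control 1 lay among the deficient arrays and control 2 below them. The difference was 0.40 (SE 0.25, 95% interval -0.21 to 1.00; limma adjusted p = 0.573), and it was 0.07 without control 2 and 0.73 without control 1. On the other Tet2 probe set (1438781_at) the deficient arrays themselves split, with 7.58 and 7.37 in deficient 1 and 2 but 5.93 in deficient 3, below the controls at 6.64 and 6.42. This gave a difference of 0.43 (SE 0.49, limma adjusted p = 0.797), which was 0.94 without deficient 3, 0.12 without deficient 1 and 0.22 without deficient 2. Deficient 3 was thus the highest array on one Tet2 probe set and the lowest on the other.

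Tet3 has 1 probe set (1439324_at), which read 4.07 and 4.29 in controls and 4.20, 4.24 and 4.32 in deficient cells. All 5 values lay below the array median, where summarised intensities compress differences, so little can be read from the difference of 0.07 (95% interval -0.22 to 0.36).

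The writers and the TET genes were set side by side as a description. Over reference probe sets, the median difference was 0.47 for the 5 DNMT and UHRF genes and 0.07 for the 3 TET genes, where the median over all 18193 genes was -0.01. Measured from the mean of the 2 controls, the median of the DNMT and UHRF genes was 0.32, 0.56 and 0.41 in deficient 1, 2 and 3, and -0.04 and 0.04 in the controls. The 2 control values of a gene mirror each other by construction, and their median hides wider spreads, such as -0.355 and 0.355 for Dnmt3a. The TET median was 0.21, 0.06 and 0.14 in deficient cells, within the 0.33 and -0.33 of the 2 controls. With all probe sets of a gene averaged in place of the brightest, the median was 0.29 for the DNMT and UHRF genes and 0.13 for the TET genes. Without control 1 the TET median was 0.52, above the 0.35 of the DNMT and UHRF genes, so the order of the 2 sets rests on that array. The difference between the 2 sets was not tested.

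**Figure D3:**
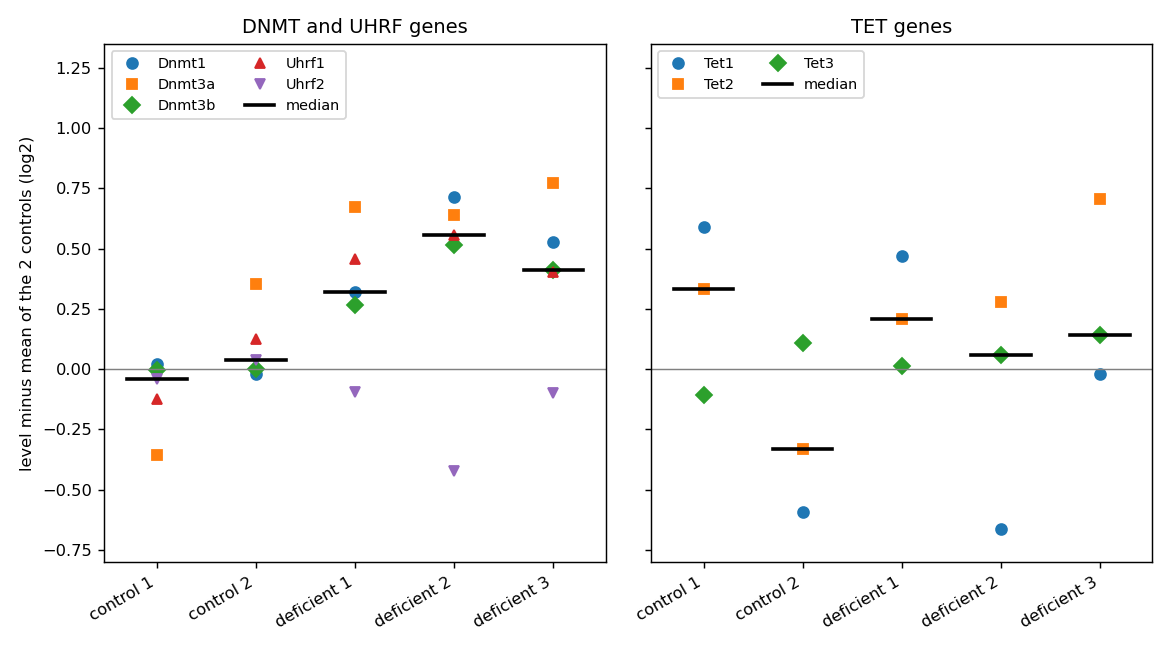
Level of each gene's brightest probe set minus the mean of the 2 controls (log2) on each array, for the DNMT and UHRF genes on the left and the TET genes on the right; points are genes and black bars are the median of the genes shown. The left bars stand at 0.32 to 0.56 in deficient cells against -0.04 and 0.04 in controls, while the right bars in deficient cells, 0.06 to 0.21, lie between those of the 2 controls.

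The promoter windows of these genes were searched for letters bound by E2F factors and by MuvB complexes. The RefSeq table (GRCm38.p6) holds 13 windows for the 8 genes, each of 300 bases from 250 before to 50 after an annotated start. The E2F letters sought were TTTCCCGC, TTTCGCGC, TTTGCCGC and TTTGGCGC, and the CHR letters, named for the cell-cycle homology region that MuvB complexes bind, were TTTGAA, both on either strand. E2F letters occurred in 2 of the 13 windows, 1 of Dnmt1 and 1 of Uhrf1, against 2.26% of all 32851 windows. CHR letters occurred in 2, 1 of Dnmt1 and 1 of Dnmt3b, against 17.9% of all windows. No match overlapped another. The stretches of 30 bases around 4 of these matches are shown because they belong to 3 of the genes that leaned upward, read 5′ to 3′ on the gene's strand with the matched letters in capitals.
Dnmt1, start 3, E2F letters on the opposite strand, chr9:20952824-20952853 (minus strand): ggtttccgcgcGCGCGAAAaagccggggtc
Uhrf1, start 2, E2F letters, chr17:56304117-56304146 (plus strand): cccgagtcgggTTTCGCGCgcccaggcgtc
Dnmt1, start 1, CHR letters on the opposite strand, chr9:20960070-20960099 (minus strand): tgcaagtcctccTTCAAAgggcctacatcc
Dnmt3b, CHR letters on the opposite strand, chr2:153649309-153649338 (plus strand): ctcgggagggatTTCAAAtctccctcgccc
The Dnmt1 and Uhrf1 E2F letters begin 219 and 185 bases before those starts, and window 3 of Dnmt1 also holds TTTGGCGC at bases 34 to 41 after its start. Relative to start 3 of Dnmt1 and start 2 of Uhrf1, the outermost annotated start of the gene lies at -7265 and -976. The E2F matches of both genes therefore lie downstream of the outermost start. The windows of Dnmt3a, Uhrf2, Tet1, Tet2 and Tet3 hold neither set of letters in the bases searched. These matches describe the sequence and do not show binding, and an absence says only that these letters are not in the window.

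Genes that work with the methyltransferases were compared next, by a fit that kept the brightest probe set of every gene, where 0.83% of 18193 genes passed as higher and 1.41% as lower. Of 19 measured methylation cofactors, 0 passed (5 higher and 0 lower at an unadjusted p below 0.05, against 8.79% and 9.86% of all genes), and the median difference was 0.13. Closest to the threshold was Hells, a chromatin remodeller needed for normal DNA methylation. It read 9.66 and 9.98 in controls and 10.77, 10.60 and 10.50 in deficient cells, with no overlap (difference 0.81, SE 0.15, limma adjusted p = 0.0580). Nsd1, which methylates histone H3 in a way that guides DNMT3 enzymes, differed by 0.74 (SE 0.16, limma adjusted p = 0.0775). Usp7, a deubiquitinase that binds DNMT1 and UHRF1, differed by 0.45 (limma adjusted p = 0.156) and the histone methyltransferase gene Ehmt2 by 0.37 (limma adjusted p = 0.147). The cofactor median was 0.01 without control 1.

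The list of methyl-CpG readers and their family relatives gave a median of 0.25 over 8 measured genes, and 0 passed (limma; 3 higher and 0 lower at an unadjusted p below 0.05). With all probe sets of a gene averaged, that median was 0.09. Mbd6, a gene of the methyl-CpG-binding domain family, read 6.98 and 6.51 in controls and 7.59, 7.53 and 7.42 in deficient cells (difference 0.77, SE 0.16, limma adjusted p = 0.0785). Its groups did not overlap. Zbtb33, which encodes the methyl-DNA-binding factor Kaiso, differed by 0.51, Zbtb38 by 0.41 and Mbd1 by 0.27, with limma adjusted p-values of 0.234 or more.

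Partners of demethylation showed no common direction, with a median of -0.05 over 15 measured genes and 0 past the threshold (limma; 0 higher and 1 lower at an unadjusted p below 0.05). The 1 was Gadd45g, a stress-response gene linked to demethylation, which read 7.46 and 7.15 in controls and 6.30, 6.34 and 7.04 in deficient cells. Deficient 3 lay close to the lower control (difference -0.75, SE 0.25, limma adjusted p = 0.189). Its relatives Gadd45b and Gadd45a differed by -0.59 and -0.21, and the TET-binding gene Cxxc4 by 0.31 from a level below the array median.

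S phase and proliferation genes were listed because maintenance methylation runs with replication. Of 21 measured genes 20 had a higher mean in deficient cells (48.1% of all genes did), 15 had groups that did not overlap upward (16.5% of all genes) and 1 rose past the threshold. That gene was Mki67, the proliferation marker, which read 11.32 and 11.44 in controls and 12.45, 12.56 and 12.45 in deficient cells (difference 1.11, SE 0.11, limma adjusted p = 0.0135). Leaving out each array in turn gave Mki67 differences of 1.05 to 1.17, and the gene did not pass without control 1, deficient 1 or deficient 3 (limma adjusted p = 0.0678, 0.0552 and 0.0682). Top2a differed by 0.73, Ccna2 by 0.73 and Rrm2 by 0.52, with limma adjusted p-values of 0.0878 or more. The list median was 0.31, against 0.47 for the DNMT and UHRF genes. Measured from the control mean, the S phase median was 0.35, 0.33 and 0.29 in the deficient arrays and -0.14 and 0.14 in the controls. Without control 1 it was 0.14, and without control 2 it was 0.51. The part of proliferation in the Dnmt1, Dnmt3a, Dnmt3b and Uhrf1 values was not tested.

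**Figure D4:**
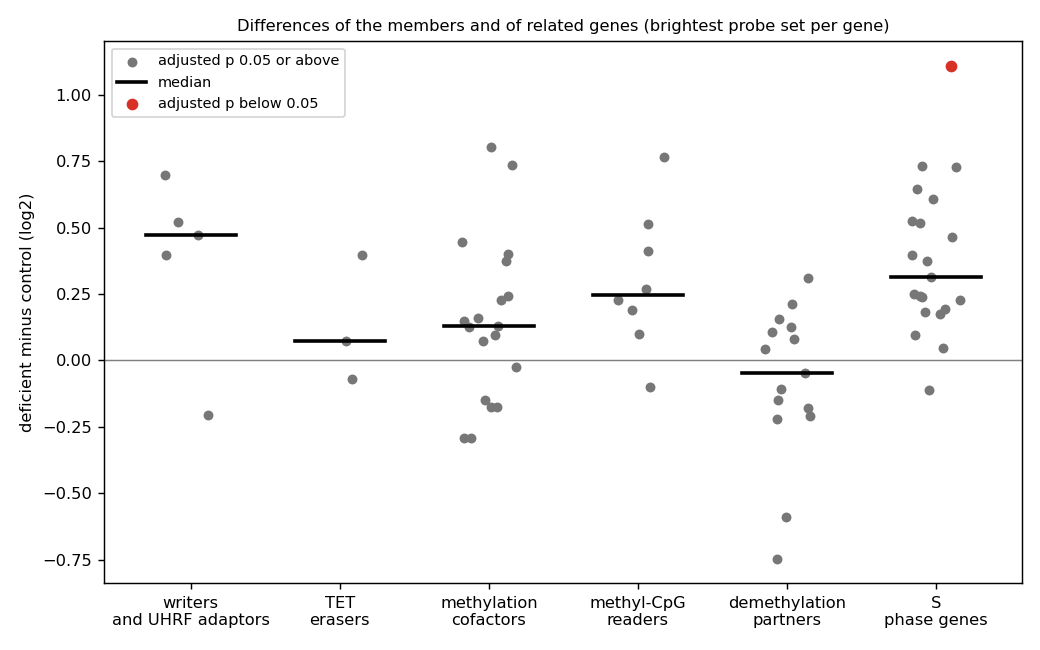
Difference between the groups (deficient minus control, log2) for the brightest probe set of each gene, for the members and 4 lists of related genes; grey points did not pass, the red point passed at an adjusted p below 0.05, bars are medians, and sideways scatter within a list has no meaning. The S phase list has a median of 0.31 and holds the red point, Mki67 at 1.11, and the demethylation partners have a median of -0.05.

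Among 9089 genes brighter than the median gene, those whose 5-array pattern lay nearest to Dnmt3a, the writer with the widest range over arrays among reference probe sets (1.13), were Ckap2, a spindle-associated protein gene, and Hrob, a homologous recombination gene, both at a mean absolute distance of 0.04 between centred log2 profiles, and Mindy3, a deubiquitinase gene, at 0.06. Ckap2 read 8.10 and 8.68 in controls and 9.05, 8.97 and 9.18 in deficient cells, so that control 1 was the lowest array there as it was for the Dnmt3a reference. For Tet1, the TET gene with the widest range by the same measure (1.25), the nearest were the transcription factor gene Nfia (0.14), the MHC class I gene H2-Q5 (0.15) and Tbc1d8b (0.16). Nfia read 8.16 and 7.35 in controls and 7.96, 7.03 and 7.79 in deficient cells, low in control 2 and deficient 2 like Tet1.

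Of 3 measures of RNA quality, 2 did not overlap between the groups. Among all probe sets, 15.4% had the deficient arrays above both controls and 15.2% below. The 3' minus 5' log2 signal of beta-actin was 3.16 and 3.12 in controls and 3.40, 3.53 and 3.34 in deficient cells, and an 18S ribosomal RNA probe set read 10.45 and 10.36 against 9.88, 9.71 and 9.70. Each gave an exact permutation p of 0.1 (two-sided), the smallest that 2 against 3 arrays allow. The 3' minus 5' signal of Gapdh differed by 0.02 (exact permutation p = 0.9). Their part in the values of the 8 genes was not tested.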

How the data were processed

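Biotin-labelled RNA of sorted KLS cells was read on Affymetrix arrays, per the labels' protocols; the study hybridised 6 arrays and left out 1. The authors made the deposited intensity values with RMA, per the submitters' processing notes, with version not given in the sources used here. RMA gives all arrays like distributions, so a shift of all transcripts would not be seen, and it compresses dim probe sets. All 5 columns were used, and log2 was taken here. Depth does not apply to arrays: their number limits the precision.

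Probe sets were named by the platform annotation, and all 21 member symbols matched RefSeq by gene identifier. Groups were compared in limma 3.58.1 under R 4.3.3 (lmFit, eBayes, two-sided, no covariate) on 45037 probe sets, without 64 control probe sets, and again on the brightest probe set per gene; p-values were adjusted by Benjamini-Hochberg, with a threshold of 0.05. The fit was tested on simulated data. Promoter letters were searched in RefSeq windows.

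The members and lists were chosen with earlier results of these data known. The text names every member and all its probe sets, the genes of each related list past the threshold with up to 4 of smallest p, and the 3 nearest patterns to 1 writer and 1 TET gene. Alternatives were other normalizations, filters, priors, weights and thresholds, the replicate block, the mean of a gene's probe sets and each array left out.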

Additional observations from a re-analysis of the deposited data

How the results depend on the processing

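No probe set of the 8 genes passed in any alternative that counted member probe sets (limma). The run without probe sets ending in _x_at or _s_at gave no such count. In the main setting 0 of 21 passed and 10 were higher at an unadjusted p below 0.05. That unadjusted count was 4 without control 1 and 4 without control 2. Dnmt1 (0.43 to 0.62), Dnmt3a (0.34 to 1.05) and Dnmt3b (0.16 to 0.46) kept the direction of their differences under all 14 alternatives. Uhrf1 (0.29 to 0.60) and Tet2 (0.07 to 0.73) did too. Several of the alternatives could not turn a direction. Other priors and the filter of dim probe sets left the reference differences unchanged. Leaving out 1 array cannot turn a difference whose groups do not overlap, as on all these references but that of Tet2. The ranges given are of the reference, except where all probe sets of a gene were averaged. That average gave the lower ends of Dnmt3b and Uhrf1, whose references had lowest values of 0.34 and 0.35. In fits that kept both controls, the smallest limma adjusted p-values of these genes were 0.0874, 0.155, 0.163, 0.130 and 0.400, in the order named. The direction of Tet1 turned to 0.046 with array weights and 0.13 with all probe sets averaged, and that of Uhrf2 to 0.21 with all probe sets averaged; leaving out each array gave -0.66 to 0.52 for Tet1 and -0.037 to 0.18 for Tet3. Without dim probe sets, which kept 18 of the 21 probe sets and 7 of the 8 genes, the TET median was 0.16. With all probe sets averaged, the TET median was 0.13 and the median of the DNMT and UHRF genes 0.29. With 1 array left out, the median of the DNMT and UHRF genes ran from 0.35 to 0.51, and that of the TET genes from 0.037 to 0.52.

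The whole table gave 74 probe sets higher and 147 lower. These were 141 and 260 with an intensity trend in the prior and 451 and 497 at an adjusted p under 0.1, and they ran from 2 to 5 and from 21 to 73 with 1 array left out. Over genes, 151 were higher and 257 lower, 475 and 590 at an adjusted p under 0.1, and from 14 to 46 and from 57 to 169 with 1 array left out. With the trend, 3 related genes passed (Mki67, Top2a and Hells) in place of 1, and between 0 and 1 with an array left out.

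With the replicate number as a block, 0 probe sets were higher and 15 lower, 1 gene was higher and 20 lower, and 0 related genes passed. The block leaves 1 residual degree of freedom and gives deficient 3 no partner. The numbers were not treated as pairing the samples. Deviations of same-numbered arrays correlated at -0.05 and -0.02. With 2 controls their deviations mirror each other, so these values cannot show whether the samples were paired. The cause of these changes was not tested. E2F letters occurred in the windows of 2 member genes with the 250 bases before each annotated start alone as well. The small number of arrays limits what could be called, and the dim Tet3 and Tet1 probe sets carry little signal over background.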
